A study of Mus musculus with 144 samples.

Results

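The proteasome genes were taken as every protein-coding mouse gene whose symbol is Psm, a letter from a to g and a number. Of 55359 genes in the count files, 56 symbols fitted this pattern, 5 of them were pseudogenes and were left out, and 51 genes remained. They comprised 14 constitutive subunits of the core particle (Psma1 to Psma7 and Psmb1 to Psmb7), 3 immunoproteasome subunits (Psmb8, Psmb9 and Psmb10), 6 ATPases (Psmc1 to Psmc6), 11 other subunits of the lid and base of the regulatory particle (Psmd genes), 3 chaperones of base assembly (Psmd5, Psmd9 and Psmd10), 5 activators (Psme genes), 1 inhibitor (Psmf1) and 4 chaperones of core assembly (Psmg1 to Psmg4). A further 2 were core subunits of the testis (Psma8) and the thymus (Psmb11), and 2 shared only the symbol, namely Psmc3ip, a meiotic recombination factor, and Psme3ip1, a binding partner of Psme3.

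The proteasome degrades proteins that carry ubiquitin chains. Its core particle is a barrel of stacked rings with the proteolytic sites facing inward, and its regulatory particle binds the ubiquitin chain, removes it and threads the unfolded substrate into the core through a ring of ATPases. Interferon signalling exchanges the catalytic core subunits for immunoproteasome counterparts and raises the activator made of Psme1 and Psme2, which together alter the peptides offered to major histocompatibility complex class I molecules, while loss of proteasome activity is known to raise subunit genes through the transcription factor Nfe2l1.

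Expression was measured by RNA sequencing in primary hepatocytes, liver cells isolated with collagenase from male mice aged 28 days. Cells labelled WT came from the C57BL/6NCrl strain, and cells labelled PkmΔDRE came from a line in which an intronic dioxin response element (DRE, the site bound by the aryl hydrocarbon receptor) of the Pkm gene was deleted by genome editing before crossing back to C57BL/6N, so that the deletion is in the germ line and not limited to hepatocytes. Cultures received 10 nM TCDD (2,3,7,8-tetrachlorodibenzo-p-dioxin, which activates the aryl hydrocarbon receptor) or its solvent DMSO (vehicle) and were harvested after 2, 4, 8, 12 or 24 h and then daily up to 120 h. Each of the 36 combinations of label, treatment and time had 4 libraries, named below as replicates 1 to 4 in the order of their deposit, and since no label says that these came from separate animals, the p-values below measure only the spread between these libraries.

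The libraries held 13588848 to 30719161 read pairs on genes (median 18011825), and 48 of the 51 proteasome genes had at least 1 count in each of them. Levels are given as CPM, counts relative to a common library size after TMM scaling. The targeted gene did not move as the authors reported for these labels. At 8 h Pkm averaged 62.4 ± 16.5 CPM (SD, n = 4) with vehicle and 45.6 ± 14.5 CPM with TCDD in the libraries labelled WT. In those labelled PkmΔDRE it averaged 54.9 ± 19.2 and 130 ± 27.2 CPM. The difference between the 2 responses of Pkm did not pass the test (log2 difference 1.59 ± 0.35, adjusted p = 0.292), and every direction below belongs to the libraries as labelled. At 12 and 24 h the log2 fold change of Pkm was 0.17 ± 0.38 and 0.01 ± 0.56 in WT and 1.68 ± 0.26 and 1.34 ± 0.39 in PkmΔDRE, none of them called, and counts per gene do not tell the splice forms of Pkm apart. Hepatocyte markers summed to 125425 to 170524 CPM in the vehicle libraries labelled WT at 2 h and to 3478 to 17492 CPM at 120 h. The 6 lymphocyte markers summed to at most 1.87 CPM in the vehicle libraries of either label at 2, 24 and 120 h. In PkmΔDRE vehicle cultures 2 libraries stood apart by more than 3-fold in the hepatocyte markers. Replicate 4 at 4 h had 11568 CPM where the others had 122498 to 140822, and 76.6 CPM of stellate or fibroblast markers where they had 4.43 to 10.8. Replicate 4 at 96 h had 111239 CPM where the others had 14423 to 16745, and 2.201 CPM of stellate or fibroblast markers where they had 30.8 to 56.7. Neither library is in the 8 h or the culture comparisons, and results that include them are given with and without them.

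Levels were divided by transcript length to compare genes. In WT vehicle cultures at 2 h the 14 core subunits had a median of 97.3 CPM per kilobase (range 38.8 to 212), close to the 6 ATPases at 95.6 and above the 11 lid and base subunits at 72.0. Psmd8, a lid subunit, was the highest of all at 271 ± 40.6 CPM per kilobase (SD, n = 4). The replaced catalytic subunits Psmb6 (caspase-like site), Psmb7 (trypsin-like site) and Psmb5 (chymotrypsin-like site) stood at 191 ± 27.004, 86.2 ± 10.3 and 64.4 ± 9.30 CPM per kilobase. Their immunoproteasome counterparts Psmb9, Psmb10 and Psmb8 stood at 10.7 ± 2.73, 40.8 ± 9.45 and 9.89 ± 3.11, so that each lay below its constitutive partner in these hepatocytes. Psmc6 was the lowest ATPase at 8.08 ± 2.75 CPM per kilobase, which sets it apart from the rest of its class before any treatment. Psme4 was the lowest activator at 2.29 ± 0.822 CPM per kilobase, with Psme2b near it at 4.73 ± 1.94. Psma8 had no count in the 4 WT vehicle libraries at 2 h, and Psmb11 had too few counts to be tested in any comparison.

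After TCDD most calls among the proteasome genes were in WT cells at 8 h, where members of most classes fell and a few genes of the regulatory particle and activators rose. A gene was called when its adjusted p was under 0.05 and its change at least 1.5-fold, and log2 fold changes are given with their SE for 4 against 4 libraries. Of 49 proteasome genes tested, 18 fell and 5 rose, against 13.6% of all 12392 genes tested called lower and 23.8% called higher. The median log2 fold change was -0.45 over the proteasome genes and 0.00 over all genes tested. In 28 proteasome genes all 4 TCDD libraries lay below all 4 vehicle libraries, and in 7 they lay above, where the shares over all genes were 18.2% and 23%. Those that fell covered the core (4 of 14), the immunoproteasome (3 of 3), the ATPases (3 of 6), the lid and base (2 of 11), the activators (3 of 5) and both groups of assembly chaperones (1 of 3 and 2 of 4). Those that rose were 1 ATPase, 3 lid and base subunits and 1 activator.

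**Figure D1:**
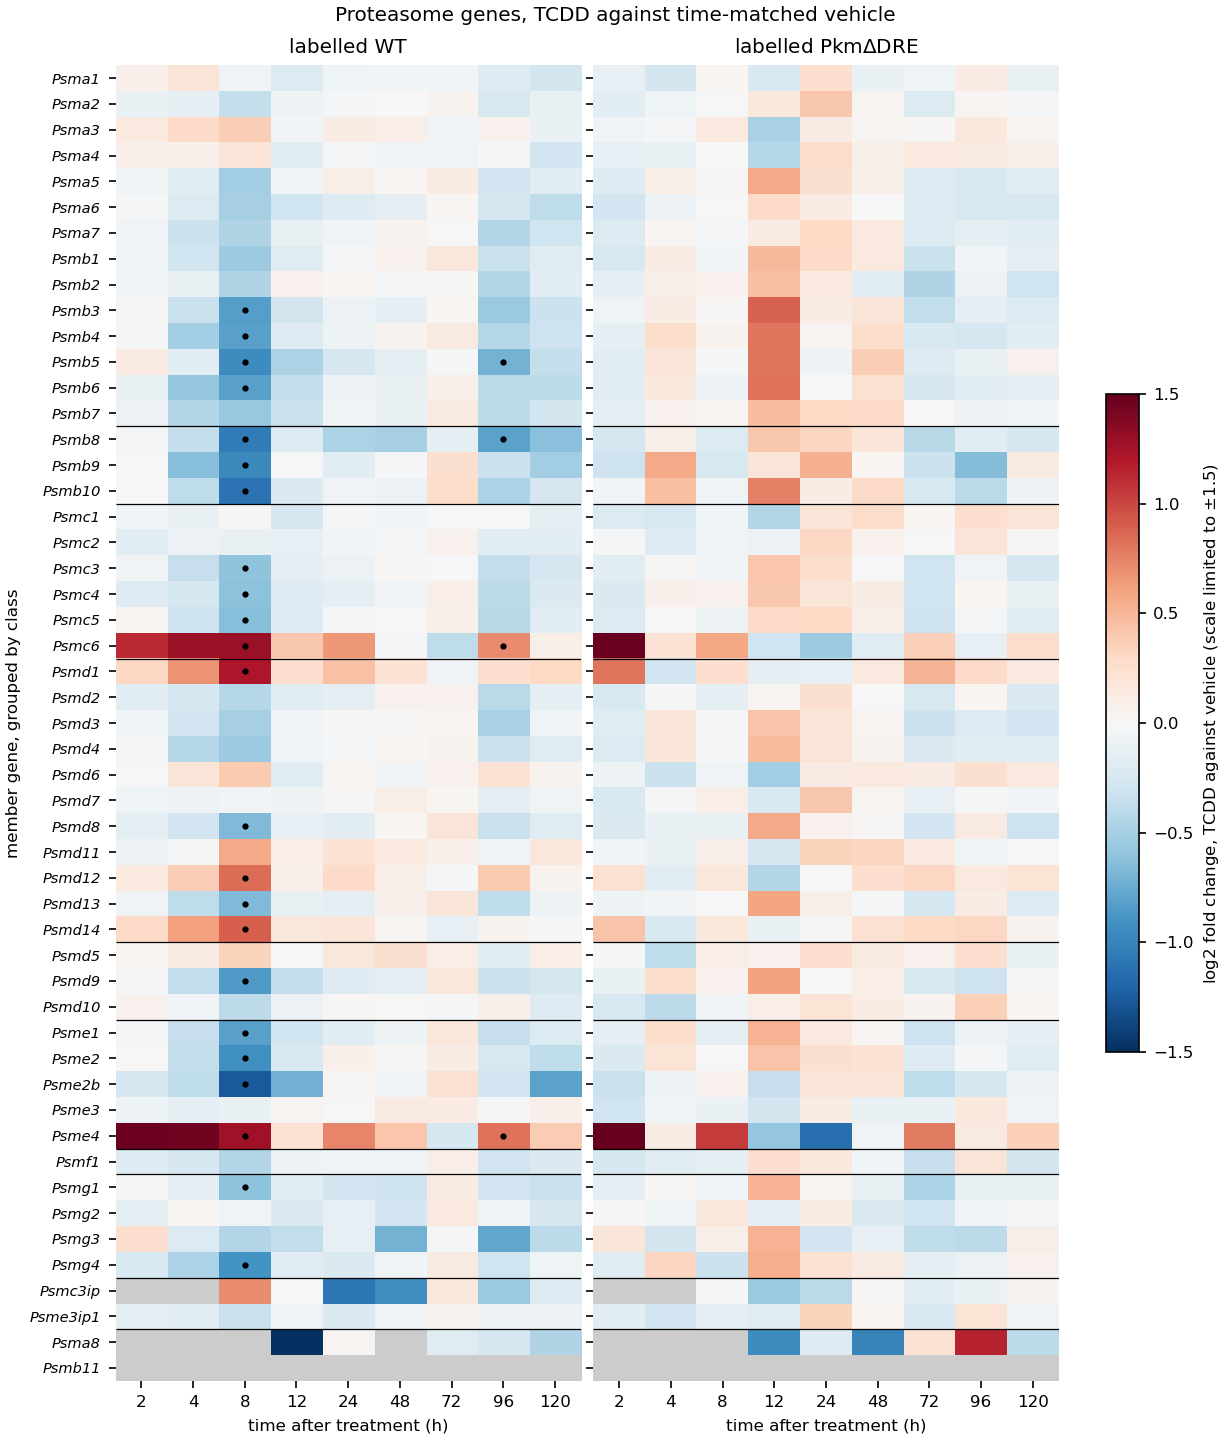
Log2 fold change of each proteasome gene (vertical axis, grouped by class) after TCDD against vehicle in each of the 18 comparisons of label and time in hours (horizontal axis), with blue for lower, red for higher, a dot for a call and grey for a gene not tested. Dots are at 8 h and 96 h in WT alone, with 18 lower and 5 higher at 8 h and 2 of each at 96 h, although the difference between the labels was not called at any time.

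All 3 immunoproteasome subunits fell at 8 h in WT, with a median log2 fold change of -1.05. Psmb8, which takes the chymotrypsin-like position, stood at 13.9, 14.3, 11.96 and 12.5 CPM with vehicle and at 10.3, 7.95, 3.17 and 4.71 CPM with TCDD (log2 fold change -1.05 ± 0.33, adjusted p = 0.0198). Psmb9, which takes the caspase-like position, lay at 8.51, 6.77, 7.19 and 9.08 CPM with vehicle and at 2.43, 5.64, 4.11 and 4.16 CPM with TCDD (-0.97 ± 0.29, adjusted p = 0.0172). Psmb10, which takes the trypsin-like position, was at 86.3, 70.02, 52.9 and 48.1 CPM with vehicle and at 35.5, 36.4, 21.7 and 28.9 CPM with TCDD (-1.11 ± 0.22, adjusted p = 0.00252). In each of them all TCDD libraries lay below all vehicle libraries. Exon bases shared with other genes made up 14.7% of Psmb8 (Gm20496, opposite strand) and 5.79% of Psmb9 (Tap1, opposite strand). Markers of macrophages, cells in which these subunits are abundant, moved the same way: the 6 markers summed to 135.2 to 181 CPM with vehicle and 59.2 to 110 CPM with TCDD, 3 of the 6 fell and none was at 0. The lymphocyte markers Cd3e, Nkg7 and Trac were at 0 in the vehicle libraries as well as in the TCDD libraries. All 6 lymphocyte markers summed to at most 0.525 CPM with vehicle and 2.31 CPM with TCDD. Hepatocyte markers summed to 76047 to 89830 CPM with vehicle and to 65960 to 74420 CPM with TCDD, with 3 of 8 falling and 2 rising. The part of other cell types in the result was not tested, and in bulk RNA fewer cells of a type cannot be told apart from less RNA per cell.

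Promoters were compared because many subunits moved together. The promoters of the immunoproteasome genes, which all fell at 8 h in WT, are given from RefSeq for GRCm38.p6, 5′ to 3′ on the strand of the gene, from 250 bases before the start to 50 after it. Psmb8 is at chr17:34197945-34198244, plus strand, Psmb9 at chr17:34187281-34187580, minus strand and Psmb10 at chr8:105938343-105938642, minus strand. Capitals mark GCGTG, the core of the DRE, on either strand (CACGC on the other strand), and in Psmb8 also TTCNNNGAA, a STAT site.
Psmb8: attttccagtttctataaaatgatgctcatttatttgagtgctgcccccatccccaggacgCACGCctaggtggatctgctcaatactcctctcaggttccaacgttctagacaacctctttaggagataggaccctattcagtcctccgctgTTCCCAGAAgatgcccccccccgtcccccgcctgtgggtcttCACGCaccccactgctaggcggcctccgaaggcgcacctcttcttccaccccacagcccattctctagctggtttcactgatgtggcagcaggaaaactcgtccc
Psmb9: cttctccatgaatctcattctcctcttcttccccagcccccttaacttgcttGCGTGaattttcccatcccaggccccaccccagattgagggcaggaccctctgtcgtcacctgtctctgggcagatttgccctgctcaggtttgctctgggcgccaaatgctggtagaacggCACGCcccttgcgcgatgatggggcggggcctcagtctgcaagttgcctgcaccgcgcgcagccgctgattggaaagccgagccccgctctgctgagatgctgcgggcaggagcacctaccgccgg
Psmb10: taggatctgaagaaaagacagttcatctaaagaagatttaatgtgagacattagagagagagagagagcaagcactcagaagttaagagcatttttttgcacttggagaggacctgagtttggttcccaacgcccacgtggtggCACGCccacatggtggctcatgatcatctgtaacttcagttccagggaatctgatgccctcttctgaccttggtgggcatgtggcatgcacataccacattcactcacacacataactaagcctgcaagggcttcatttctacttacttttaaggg
The GCGTG core occurs at 2 places in Psmb8, 2 in Psmb9 and 1 in Psmb10. It was in the promoters of 22 of 43 proteasome genes with an entry (51.16%) and in 35.15% of 27025 genes, and a match is a description and not a site of binding. The core of the interferon-stimulated response element was in 5 of 43 (11.63% against 3.99%). These were Psmb3, Psmd4, Psmd9, Psme1 and Psmg4, and none of the immunoproteasome genes had it in the windows shown. The windows of Psmb8 and Psmb9 lie inside the annotated genes, whose outermost starts are at 34197721 and 34187764. Sequence before those starts was not searched. CCAAT was in 16 (37.21% against 41.06%) and TTCNNNGAA in 3 (6.98% against 9.55%).

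The constitutive core was lower in the same libraries by smaller amounts, with a median log2 fold change of -0.51 over its 14 subunits, 4 of which were called. By adjusted p alone 11 of 14 were lower, where 20.2% of all genes tested were, and none was higher, where 25.3% were. Psmb5, the chymotrypsin-like subunit, stood at 100.9, 78.6, 84.8 and 79.2 CPM with vehicle and at 66.1, 41.04, 31.3 and 44.1 CPM with TCDD (-0.95 ± 0.21, adjusted p = 0.0036). Psmb6, the caspase-like subunit, lay at 198, 216, 173 and 145 CPM with vehicle and at 127.1, 113.6, 80.5 and 103.9 CPM with TCDD (-0.82 ± 0.17, adjusted p = 0.00312). Psmb7, the trypsin-like subunit, was at 108.2, 104.4, 84.8 and 71.1 CPM with vehicle and at 81.9, 59.9, 55.7 and 57.6 CPM with TCDD (-0.57 ± 0.18, adjusted p = 0.0221) and was below the fold threshold. The groups overlapped for Psmb7, through TCDD replicate 1 alone, and did not for Psmb5 and Psmb6. Psmb3 and Psmb4, which are core subunits without a proteolytic site, fell as well. Psmb3 stood at 177, 172.2, 145 and 137.7 CPM with vehicle and at 107.8, 91.001, 78.7 and 86.8 CPM with TCDD (-0.83 ± 0.15, adjusted p = 0.00164). Psmb4 lay at 381, 380.3, 316 and 268 CPM with vehicle and at 230.1, 212, 159 and 184 CPM with TCDD (-0.81 ± 0.16, adjusted p = 0.00244). In both genes the 2 groups did not overlap. No subunit of the Psma rings, which gate entry to the barrel, was called, and their log2 fold changes ran from -0.53 (Psma5) to 0.37 (Psma3). Mir686 shares 12.1% of the exon bases of Psmb5, and Nek6 on the opposite strand 11.8% of those of Psmb7.

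Among the ATPases, which unfold substrates, 3 fell and 1 rose. Psmc6 was at 17.4, 22.9, 28.2 and 25.9 CPM with vehicle and at 35.6, 59.2, 82.8 and 59.7 CPM with TCDD (1.30 ± 0.23, adjusted p = 0.00174). Each TCDD library was above each vehicle library for this gene. Psmc5 stood at 200.4, 182, 170.5 and 164 CPM with vehicle and at 141.4, 117.6, 98.6 and 115.2 CPM with TCDD (-0.63 ± 0.14, adjusted p = 0.00413). Psmc4 lay at 224, 222, 196 and 197 CPM with vehicle and at 156, 146, 120.6 and 138.1 CPM with TCDD (-0.62 ± 0.13, adjusted p = 0.00309). Psmc3 was at 226, 219, 193 and 197 CPM with vehicle and at 150.3, 146, 124.4 and 142.9 CPM with TCDD (-0.60 ± 0.13, adjusted p = 0.00299). None of these 3 overlapped between the groups, and each lay near the fold threshold. Psmc1 and Psmc2 had log2 fold changes of 0.02 and -0.11 and were not called.

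The lid and base subunits moved in both directions, with a median of -0.05 over 11 genes. Psmd1, a scaffold of the base, stood at 45.5, 45.3, 58.6 and 58.5 CPM with vehicle and at 82.8, 106.3, 182 and 121.2 CPM with TCDD (1.21 ± 0.21, adjusted p = 0.00159). Psmd14, the lid enzyme that removes the ubiquitin chain, lay at 22.6, 29.6, 49.2 and 47.1 CPM with vehicle and at 50.6, 60.8, 92.6 and 78.1 CPM with TCDD (0.90 ± 0.25, adjusted p = 0.0122). Psmd12, a structural lid subunit, was at 42.01, 35.3, 54.2 and 49.9 CPM with vehicle and at 69.2, 66.9, 105.6 and 90.1 CPM with TCDD (0.84 ± 0.18, adjusted p = 0.00349). All 3 rose, with every TCDD library above every vehicle library. The lid subunits Psmd8 and Psmd13 fell. Psmd8 stood at 845, 806, 619 and 628 CPM with vehicle and at 554, 476, 417 and 422 CPM with TCDD (-0.67 ± 0.16, adjusted p = 0.00521). Psmd13 lay at 138.02, 148, 120.8 and 129.7 CPM with vehicle and at 87.2, 96.5, 70.2 and 92.8 CPM with TCDD (-0.66 ± 0.14, adjusted p = 0.00341). Neither overlapped between the groups. About 10.1% of the exon bases of Psmd13 are shared with Sirt3 on the opposite strand, and the counting was not stranded.

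The activators separated in the same way. Psme1 and Psme2, which form the interferon-responsive activator ring, both fell, and Psme4, a nuclear activator of a different fold, rose. Psme1 was at 85.1, 93.3, 70.1 and 68.3 CPM with vehicle and at 45.7, 54.1, 36.8 and 46.9 CPM with TCDD (-0.82 ± 0.17, adjusted p = 0.00268). Psme2 stood at 94.4, 84.7, 68.7 and 73.7 CPM with vehicle and at 52.5, 37.1, 34.3 and 50.5 CPM with TCDD (-0.92 ± 0.18, adjusted p = 0.00224). Psme4 lay at 25.7, 24.3, 25.1 and 31.4 CPM with vehicle and at 34.7, 89.7, 81.7 and 57.6 CPM with TCDD (1.28 ± 0.25, adjusted p = 0.00224). Neither member of the ring nor Psme4 overlapped between the groups. Psme3, the nuclear homologue of Psme1, was at 169, 158, 179 and 188 CPM with vehicle and at 161, 148, 178 and 176 CPM with TCDD (-0.10 ± 0.12, adjusted p = 0.533) and was not called. Psme2b, a near copy of Psme2 whose reads can be assigned to either gene, stood at 3.70, 2.43, 4.46 and 2.91 CPM with vehicle and at 2.15, 1.60, 0.763 and 1.27 CPM with TCDD (-1.26 ± 0.42, adjusted p = 0.0266), so its value is uncertain.

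The inhibitor Psmf1, which binds the core, lay at 52.3, 54.7, 64.2 and 65.4 CPM with vehicle and at 43.97, 38.7, 46.1 and 49.3 CPM with TCDD (-0.44 ± 0.14, adjusted p = 0.0234) and was lower by adjusted p but below the fold threshold. Of the chaperones of core assembly, Psmg4 was at 14.6, 15.6, 13.6 and 17.4 CPM with vehicle and at 11.04, 8.27, 6.46 and 7.87 CPM with TCDD (-0.90 ± 0.23, adjusted p = 0.00732). Psmg1 stood at 24.3, 31.99, 34.7 and 20.9 CPM with vehicle and at 20.4, 20.7, 15.1 and 18.5 CPM with TCDD (-0.62 ± 0.21, adjusted p = 0.0272). Both fell without overlap, although Psmg1 is part of a dimer with Psmg2, which was not called. Psmg2 lay at 16.96, 19.5, 26.3 and 23.2 CPM with vehicle and at 20.7, 17.5, 23.1 and 23.2 CPM with TCDD (-0.06 ± 0.19, adjusted p = 0.821). Psmg3, the partner of Psmg4, was at 4.05, 9.19, 8.08 and 5.39 CPM with vehicle and at 6.08, 6.16, 4.81 and 3.10 CPM with TCDD (-0.44 ± 0.33, adjusted p = 0.293) and was not called either. Of the base chaperones, Psmd9 stood at 72.99, 69.6, 52.1 and 52.2 CPM with vehicle and at 43.7, 40.8, 27.8 and 27.8 CPM with TCDD (-0.85 ± 0.20, adjusted p = 0.00525). It fell without overlap, while Psmd5 (0.34 ± 0.14) and Psmd10 (-0.39 ± 0.18) were not called. Gm26745 on the opposite strand shares 25.5% of the exon bases of Psmd9.

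The sequence TGACNNNGC is the core of the antioxidant response element bound by Nfe2l1 and Nfe2l2. It was in the promoters of 6 of the same 43 proteasome genes (13.95%) and of 13.99% of all genes. Of these 6 genes Psmb5, Psmb6 and Psmd9 fell and Psmc6, Psmd12 and Psme4 rose at 8 h in WT, so genes with the match were called in both directions. The stretch around each match is shown with the match in capitals. Psmb5 is at chr14:54618009-54618067, minus strand, Psmb6 at chr11:70525323-70525381, plus strand, Psmd9 at chr5:123228134-123228192, plus strand, Psmc6 at chr14:45329574-45329630, plus strand, Psmd12 at chr11:107479278-107479314, plus strand and Psme4 at chr11:30771743-30771801, plus strand.
Psmb5: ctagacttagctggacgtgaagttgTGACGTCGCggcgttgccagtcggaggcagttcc
Psmb6: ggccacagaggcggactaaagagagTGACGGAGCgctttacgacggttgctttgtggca
Psmd9: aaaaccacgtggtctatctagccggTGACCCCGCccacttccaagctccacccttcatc
Psmc6: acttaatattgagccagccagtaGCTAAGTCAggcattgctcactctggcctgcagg
Psmd12: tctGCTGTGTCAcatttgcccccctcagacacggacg
Psme4: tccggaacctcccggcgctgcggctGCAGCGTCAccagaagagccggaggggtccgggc
In Psmb5, Psmb6 and Psmd9 the match reads TGACNNNGC on the strand of the gene and begins 47, 9 and 31 bases before the start. In Psmc6, Psmd12 and Psme4 it lies on the other strand, and its left end is 227, 247 and 7 bases before the start. A link of strand with direction in these 6 genes was not tested. Those that fell had 50.8 to 56.6% G and C in their transcripts and those that rose 37.0 to 47.9%.

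**Figure D2:**
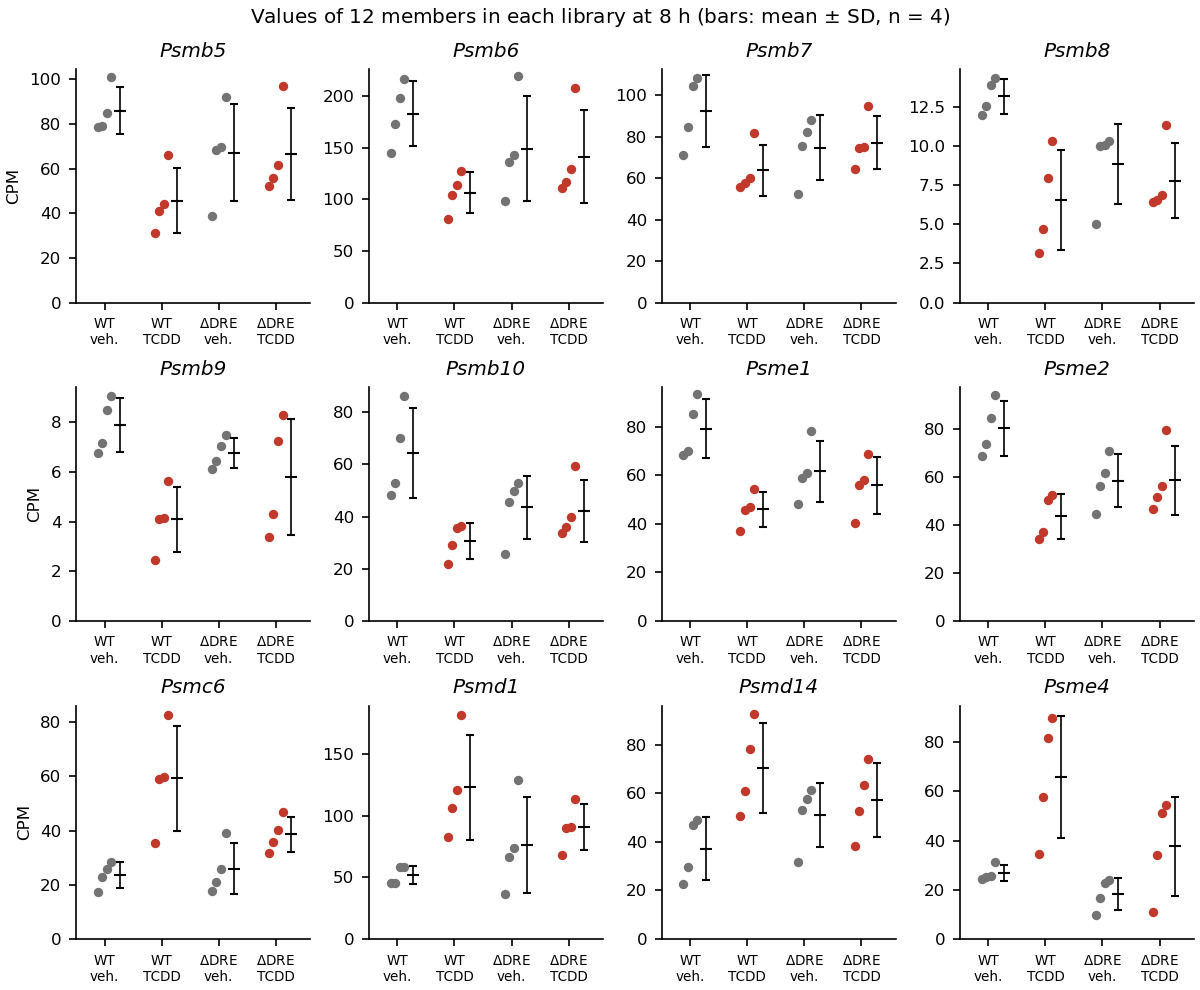
CPM of 12 proteasome genes at 8 h (vertical axes, linear) in each library of the 4 groups, WT and PkmΔDRE with vehicle or TCDD, where points are libraries and bars are the mean with SD of 4. In WT the TCDD points of Psmb8, Psmb9, Psmb10, Psmb5 and Psme1 lie below the vehicle points and those of Psmc6 and Psme4 above them, while in PkmΔDRE none of the 12 was called.

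In PkmΔDRE cells at 8 h, no proteasome gene was called by the edgeR quasi-likelihood test or by DESeq2, against 0.106% of 12293 genes called higher and 0% called lower. Psme4 alone had an unadjusted p under 0.05, where 4.78% of all genes had. Psmb8 lay at 10.3, 5.04, 10.1 and 10.03 CPM with vehicle and at 11.4, 6.55, 6.85 and 6.43 CPM with TCDD (-0.21 ± 0.30, adjusted p = 1). Psmb9 was at 7.05, 6.13, 6.45 and 7.49 CPM with vehicle and at 8.28, 3.38, 7.24 and 4.29 CPM with TCDD (-0.25 ± 0.31, adjusted p = 1). Psmb10 stood at 45.8, 25.7, 52.7 and 49.8 CPM with vehicle and at 59.6, 35.8, 39.9 and 33.6 CPM with TCDD (-0.06 ± 0.25, adjusted p = 1). The 2 groups overlapped for each immunoproteasome subunit. Psmb5 lay at 69.4, 38.8, 68.2 and 91.8 CPM with vehicle and at 96.9, 55.6, 61.6 and 52.2 CPM with TCDD (-0.03 ± 0.26, adjusted p = 1), also with overlap. Psmc6 was at 17.8, 39.3, 25.9 and 20.9 CPM with vehicle and at 31.6, 35.8, 40.1 and 46.8 CPM with TCDD (0.58 ± 0.27, adjusted p = 1). Psme4 stood at 9.57, 23.9, 22.7 and 16.6 CPM with vehicle and at 33.99, 10.8, 51.2 and 54.6 CPM with TCDD (1.05 ± 0.45, adjusted p = 1). The groups overlapped for both, with TCDD means above the vehicle means.

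The difference between the labels in the TCDD response was tested directly and was not called for any proteasome gene at 8 h, as for all 13333 genes tested (0%). At an unadjusted p under 0.05 there were 13 of 50 proteasome genes, where 15.9% of all genes were, and DESeq2 called none. The log2 difference (PkmΔDRE minus WT) was 0.92 ± 0.34 for Psmb10 (adjusted p = 0.292), 0.79 ± 0.26 for Psme2 (adjusted p = 0.292) and -1.08 ± 0.43 for Psmd1 (adjusted p = 0.294). The fall in WT was therefore not shown to differ from the response in PkmΔDRE. At the other 8 times no proteasome gene was called in this test by edgeR or DESeq2, and among all genes 1 was called lower at 48 h (0.00715%) and 1 at 72 h (0.00695%). An unadjusted p under 0.05 was found for 9 proteasome genes after 4 h (8.98% of all genes), for 7 after 12 h (7.25%) and for 6 after 96 h (13.1%). Without the PkmΔDRE vehicle libraries that stood apart these were 4 after 4 h (6.96%) and 14 after 96 h (18.2%), still with no call. No proteasome gene had one at 2 h (0.829% of all genes), 24 h (6.24%), 48 h (1.25%), 72 h (2.09%) or 120 h (3.15%).

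At 96 h fewer proteasome genes were called in WT. Of 50 proteasome genes tested 2 rose and 2 fell, against 10.1% and 5% of 13793 genes, and the median log2 fold change was -0.29 over the proteasome genes and 0.01 over all genes. Psmb8 lay at 8.86, 7.89, 6.595 and 10.2 CPM with vehicle and at 4.35, 4.58, 5.04 and 4.40 CPM with TCDD (-0.81 ± 0.17, adjusted p = 0.00502). Psmb5 was at 62.4, 63.6, 60.9 and 59.9 CPM with vehicle and at 30.8, 31.5, 40.9 and 42.2 CPM with TCDD (-0.71 ± 0.12, adjusted p = 0.00146). Both genes, which encode the alternative subunits of 1 catalytic position, fell without overlap. Psmc6 stood at 36.6, 37.9, 30.8 and 31.1 CPM with vehicle and at 62.7, 52.8, 53.8 and 45.6 CPM with TCDD (0.71 ± 0.12, adjusted p = 0.00205). Psme4 lay at 98.8, 106.3, 74.3 and 51.6 CPM with vehicle and at 169.8, 140.5, 126.9 and 123.5 CPM with TCDD (0.81 ± 0.22, adjusted p = 0.0203). Both rose, again without overlap. By adjusted p alone 23 proteasome genes were lower and 3 higher, where 16.1% and 16.7% of all genes were, and the core supplied 11 of the 23. The comparisons at 8 h and 96 h share no library, and all 23 were among the 29 that were lower by adjusted p at 8 h (79.3% of those 29). The share of all genes that were lower at both times was not computed. Over all genes, log2 fold change was correlated with G and C content at both times (-0.593 at 8 h and -0.424 at 96 h). The macrophage markers summed to 68.9 to 93.5 CPM with vehicle and 53.7 to 68.4 CPM with TCDD, with 1 of 6 called lower, and 3 of 5 endothelial markers tested fell as well. The part of other cell types was not tested. With the trend on G and C content removed (described below for 8 h) Psmb5, Psmc6 and Psme4 lost their calls, and the 4 called lower were Psmb8, Psma2, Psmb7 and Psmc2. In the same libraries Pkm fell in cells labelled WT (-0.73 ± 0.14, adjusted p = 0.00376).

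**Figure D3:**
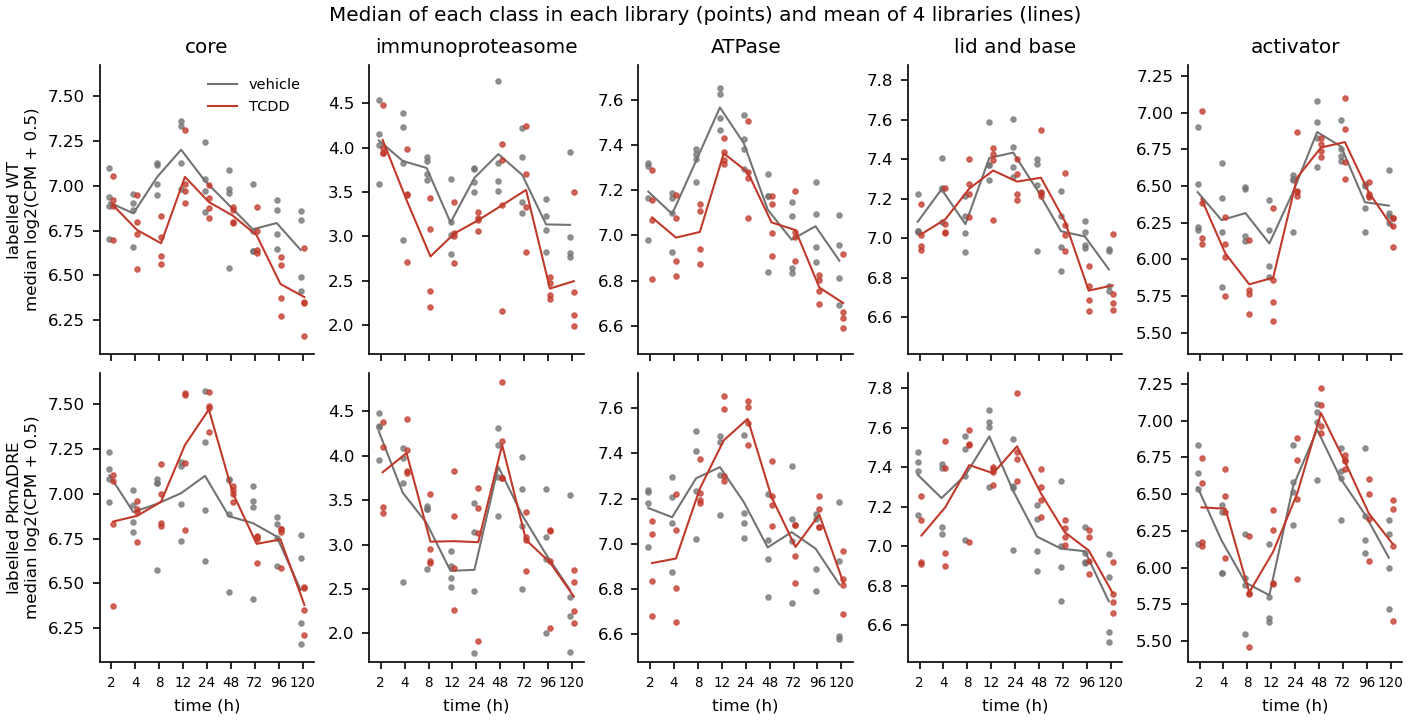
Median log2(CPM + 0.5) of the genes of each proteasome class (vertical axis) in each library against time in culture (horizontal axis, hours), with points for libraries and lines through the mean of 4. Psme2b is left out of the activators, and the WT lines for vehicle and TCDD are farthest apart in the immunoproteasome class at 8 h, where all 3 genes fell.

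At the other 7 times in WT and the other 8 in PkmΔDRE no proteasome gene was called by the edgeR test. In WT the shares of all genes called higher and lower were then 0.958% and 0.503% at 120 h and 0.272% and 0.101% at 24 h, 0.0321% were higher at 12 h and 0.00763% at 48 h, and the rest were 0%. In PkmΔDRE they were 0.808% and 0.323% at 72 h, 0.417% and 0.216% at 120 h and 0.334% and 0.0699% at 48 h, with 0.0793% higher at 96 h, 0.024% at 12 h and 0.016% at 24 h. DESeq2 called 1 proteasome gene at 2 h in PkmΔDRE (higher) and none elsewhere. Single libraries changed this at 72 h in PkmΔDRE, with 2 higher and 2 lower without vehicle replicate 1, at 2 h in PkmΔDRE, with 2 higher without vehicle replicate 2, and at 120 h in WT, with 1 lower without TCDD replicate 3.

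At an unadjusted p under 0.05 there were 9 proteasome genes at 4 h in WT (17.1% of all genes), 2 at 24 h (12.3%) and 2 at 120 h (16.1%). None had one at 2 h (1.37% of all genes), 12 h (2.63%), 48 h (2.57%) or 72 h (2.06%). In PkmΔDRE there were 2 at 2 h (14.2%) and 5 at 12 h (9.53%), and none at 4 h (2.4%), 24 h (1.29%), 48 h (6.62%), 72 h (10.7%), 96 h (7.2%) or 120 h (7.44%). Without the vehicle library that stood apart none had one at 4 h (1.05%) or at 96 h (12.1%) either, and none was called. At 4 h in WT Psmc6 had a log2 fold change of 1.29 ± 0.37 and Psmb6 one of -0.58 ± 0.17, both with adjusted p = 0.286. In PkmΔDRE at 12 h the 5 of 50 genes with an unadjusted p under 0.05, about the share of all genes (9.53%), were Psmb3, Psmb4, Psmb5, Psmb6 and Psmb10. They lay on the higher side, at log2 fold changes from 0.76 to 0.88, each with adjusted p = 0.508. Over all genes the correlation of log2 fold change with G and C content was 0.451 in this comparison.

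The direction of the 8 h response in WT ran with base composition. G and C content was measured over the exons of each gene's longest transcript. The 5 genes that rose had 37.0 to 47.9% (median 43.9%), and the 18 that fell had 49.3 to 56.6% (median 52.6%). The called sets therefore did not overlap. Over the 49 proteasome genes tested the correlation of G and C content with log2 fold change was -0.64, and over 12366 genes it was -0.593, a description of genes measured in the same 8 libraries. Among the 26 proteasome genes with more A and T than G and C, 5 rose and 2 fell, with a median log2 fold change of -0.05, where 41.8% and 4.34% of all such genes did, with a median of 0.70. Among the 23 with at least as much G and C, none rose and 16 fell, which is 69.6% against 23.6% of all such genes, with medians of -0.66 and -0.42. With the trend on G and C content removed, 16 proteasome genes were lower and 1 (Psmd1) was higher. Of these 16, 7 were among the 18, and the 9 others were Psma1, Psma2, Psma5, Psma6, Psmb1, Psmb7, Psmc2, Psmd10 and Psmf1, so that 9 of the 16 were core subunits, 2 were activators and 1 of the 3 immunoproteasome subunits (Psmb10) was left. Psmb8 then had a log2 fold change of -0.84 ± 0.30 (adjusted p = 0.0548) and Psmb9 one of -0.61 ± 0.29 (adjusted p = 0.136).

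Technical measures of the libraries also moved with TCDD at 8 h in WT. Uniquely placed read pairs on no gene made up 8.36 to 21.9% of the TCDD libraries and 4.89 to 5.99% of the vehicle libraries, and the library with 21.9% also had the fewest counts on genes. Without that library 22 proteasome genes fell and 5 rose. Leaving out each of the 8 libraries in turn gave 12 to 22 lower and 5 to 6 higher, and 10 of the 18 (Psmb3, Psmb4, Psmb5, Psmb6, Psmb9, Psmb10, Psmd9, Psme1, Psme2 and Psmg4) and all 5 that rose were called each time. The lowest counts were 12 without TCDD replicate 3 and 13 without vehicle replicate 1. With 1 surrogate variable in the fit no proteasome gene was called in either direction, and Psmc6 and Psme4 changed sign (-0.52 and -0.91). With the percentage of pairs outside genes entered in the fit 21 genes fell, including 16 of the 18 (not Psmb9 and Psmg1), and 6 rose, including all 5. Unmapped read pairs made up 8.97 to 13.5% of the vehicle libraries and 7.32 to 23.6% of the TCDD libraries, and with that share as a term all 18 and all 5 were called, among 20 lower and 5 higher. At 96 h the share on no gene was 9.08 to 11.8% with TCDD and 6.21 to 9.405% with vehicle. At 96 h, with this share as a term, Psmb8 and Psme4 lost their calls. Whether base composition or these shares caused the differences was not tested.

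**Figure D4:**
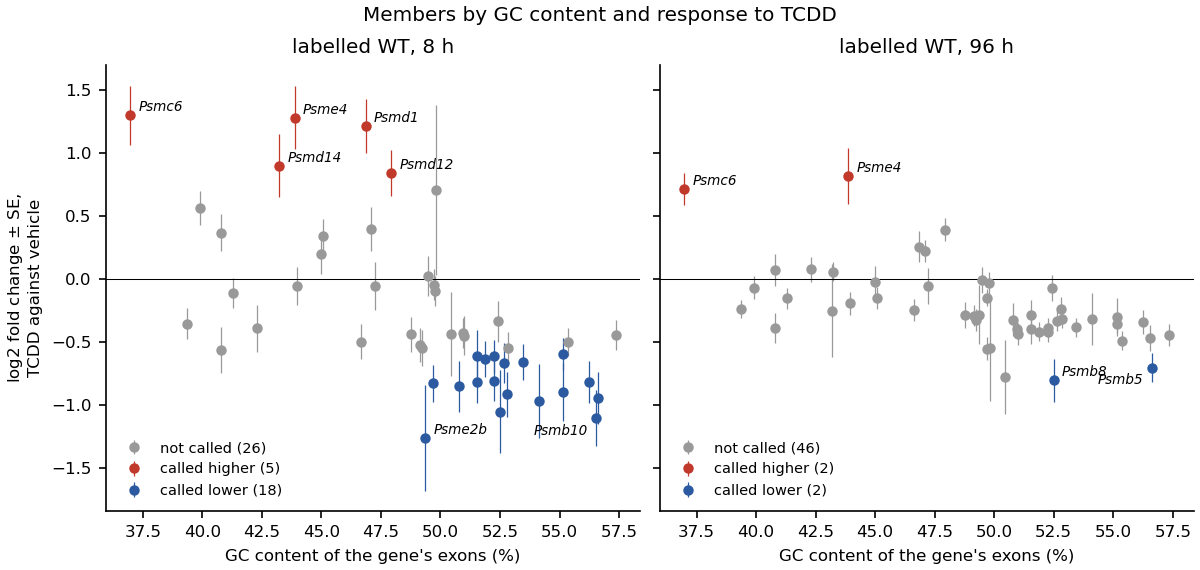
Log2 fold change after TCDD in WT (vertical axis, error bars SE) against G and C content in percent (horizontal axis) for each proteasome gene tested at 8 h and at 96 h, coloured by call. The G and C content is that of the exons of each gene's longest transcript. At 8 h the 5 genes called higher lie between 37.0 and 47.9% and the 18 called lower between 49.3 and 56.6%.

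A list of 35 other genes of the pathway, 34 of them tested, moved in both directions at 8 h in WT. Among them 10 were higher and 8 lower, against 23.8% and 13.6% of all genes tested. These calls are from the fit without removal of the trend on G and C content. Of the proteins bound to the proteasome under other symbols, the deubiquitinases Uchl5 (1.47 ± 0.33) and Usp14 (1.27 ± 0.24) and the adaptor Ecpas (1.38 ± 0.25) rose. Adrm1 (-0.61 ± 0.14), the base receptor that anchors Uchl5, and the lid component Sem1 (-0.91 ± 0.22) fell. Pomp, the core maturation factor, had a log2 fold change of -0.53 ± 0.15 and was not called. In the transcriptional feedback group the stress factor Nfe2l2 (1.39 ± 0.16) rose, as did Ngly1 (1.11 ± 0.29) and Ddi2 (0.77 ± 0.17), the glycanase and the protease that activate Nfe2l1. Nfe2l1 itself was at -0.15 ± 0.16 and was not called.

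In the antigen presentation group 5 of 10 genes fell and 1 rose, where 13.6% of all genes fell and 23.8% rose. The peptide transporter subunit Tap2 (-1.10 ± 0.25), the loading factor Tapbp (-0.74 ± 0.17), the class I heavy chains H2-D1 (-0.87 ± 0.17) and H2-K1 (-0.77 ± 0.20) and the interferon factor Irf1 (-0.78 ± 0.18) fell beside the immunoproteasome. The trimming peptidase Erap1 (1.29 ± 0.29) rose. Tap1 (-0.51 ± 0.20) and the light chain B2m (0.01 ± 0.12) were not called. Of the ubiquitin genes Ubb fell (-0.72 ± 0.19), the activating enzyme Uba6 rose (1.44 ± 0.36), and the shuttle factors Ubqln1 (0.75 ± 0.15) and Ubqln2 (1.00 ± 0.19) rose. At 96 h 4 of 34 were higher and none lower, against 10.1% and 5% of all genes. The 4 were Nfe2l2 (0.81 ± 0.08), Ngly1 (0.75 ± 0.14), Uchl5 (0.66 ± 0.17) and Uba6 (0.65 ± 0.23). No gene of the list was called in PkmΔDRE at 8 h, where 0.106% of all genes were called higher and 0% lower.

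Time in culture changed the proteasome genes without TCDD as well. From 2 to 24 h in WT vehicle cultures 8 of 50 proteasome genes rose and 2 fell, against 23.5% and 24.4% of 12514 genes tested. The core had a median log2 fold change of -0.16 and none of 14 subunits was called. Psme4, the nuclear activator, was at 16.3, 11.3, 21.7 and 9.99 CPM at 2 h and at 94.1, 97.2, 56.2 and 24.7 CPM at 24 h (1.97 ± 0.39, adjusted p = 0.00129). Psmd5, a base chaperone, stood at 38.8, 37.7, 44.3 and 34.6 CPM at 2 h and at 135.03, 132.5, 114.3 and 151 CPM at 24 h (1.54 ± 0.14, adjusted p = 3.27e-06). Psmd10, the base chaperone also known as gankyrin, lay at 15.04, 16.5, 14.5 and 17.9 CPM at 2 h and at 37.4, 38.6, 41.4 and 35.2 CPM at 24 h (1.02 ± 0.17, adjusted p = 0.000343). All 3 rose, and no 24 h library reached down to the 2 h range. Psmc6 was at 20.7, 10.97, 25.1 and 15.5 CPM at 2 h and at 46.3, 47.7, 42.6 and 24.2 CPM at 24 h (0.92 ± 0.27, adjusted p = 0.0144). Psmd8 stood at 408, 488, 338 and 433 CPM at 2 h and at 913, 991, 814 and 1142 CPM at 24 h (0.97 ± 0.17, adjusted p = 0.000534). Psmd8 did not overlap between the times, while Psmc6 did. Psmd14 lay at 51.2, 36.4, 47.2 and 37.5 CPM at 2 h and at 87.4, 75.04, 102.3 and 67.1 CPM at 24 h (0.71 ± 0.17, adjusted p = 0.00468). Psmd1 was at 58.3, 55.02, 82.1 and 65.3 CPM at 2 h and at 138.4, 109.3, 169.7 and 67.5 CPM at 24 h (0.66 ± 0.24, adjusted p = 0.0364). The times overlapped for Psmd1 and not for Psmd14. Psma8, the testis subunit, went from 0 counts over the 4 libraries at 2 h to 81 counts at 24 h, at least 12.2-fold higher against a floor of 3 counts over the group, and it entered the test through the later group alone.

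The 2 that fell from 2 to 24 h in WT were immunoproteasome subunits. Psmb9 stood at 15.9, 18.5, 9.70 and 14.04 CPM at 2 h and at 6.34, 10.9, 11.7 and 10.7 CPM at 24 h (-0.80 ± 0.29, adjusted p = 0.0351). Psmb8 lay at 12.8, 22.8, 11.6 and 17.3 CPM at 2 h and at 10.8, 13.1, 9.97 and 12.99 CPM at 24 h (-0.70 ± 0.26, adjusted p = 0.0421). In both the groups overlapped. The calls were lost without replicate 2 or 4 at 2 h and without replicate 1, 2 or 3 at 24 h (0 of 2 kept), and 1 of 2 was left without replicate 1 at 2 h. Unmapped read pairs made up 8.07 to 14.5% of a library at 2 h and 5.30 to 7.15% at 24 h, and with that share in the fit neither was called, while 6 genes were higher, 4 of them among the 8 (not Psma8, Psmc6, Psmd1 and Psmd14). With the trend on G and C content removed neither was called either. The macrophage markers went from 153 to 237 CPM in sum at 2 h to 75.2 to 118.3 CPM at 24 h, with 5 of 6 falling, and the endothelial markers from 295 to 475 CPM to 77.9 to 162 CPM, with 5 of 6 falling. The part of other cell types in the result was not tested.

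In PkmΔDRE vehicle cultures 7 of 49 proteasome genes (6 without Psmc3ip) rose from 2 to 24 h and 2 fell, against 17.3% and 13.5% of 12355 genes tested. The median log2 fold change was 0.18 over the proteasome genes and 0.36 over all genes, and RLE scaling moved them to 0.04 and 0.18. The 4 genes that rose under both labels were Psme4, Psmd5, Psmd14 and Psmd8, which is 4 of 8 in WT and 4 of 7 in PkmΔDRE, and the 2 that fell were again Psmb8 and Psmb9. Psmb9 was at 19.7, 19.7, 14.2 and 19.5 CPM at 2 h and at 4.19, 2.24, 3.51 and 8.30 CPM at 24 h (-1.97 ± 0.44, adjusted p = 0.00694). Psmb8 stood at 21.8, 12.4, 14.99 and 14.5 CPM at 2 h and at 10.6, 2.93, 5.08 and 6.66 CPM at 24 h (-1.36 ± 0.43, adjusted p = 0.0335). Here the groups did not overlap. Macrophage markers summed to 144.1 to 315 CPM at 2 h and 61.4 to 221 CPM at 24 h, with 1 of 6 falling, and their part was not tested. Psmd5 lay at 39.6, 51.2, 38.9 and 39.9 CPM at 2 h and at 175, 195, 109.9 and 139.5 CPM at 24 h (1.92 ± 0.26, adjusted p = 0.000395). Psme4 was at 9.24, 39.3, 10.5 and 20.6 CPM at 2 h and at 121.5, 213, 110.5 and 7.51 CPM at 24 h (2.64 ± 0.79, adjusted p = 0.0272). Psmd5 did not overlap between the times, while 1 library at 24 h kept Psme4 within the range of 2 h. Unmapped pairs were 9.29 to 10.8% at 2 h and 6.39 to 7.08% at 24 h, and with that share in the fit none of the 9 genes was called.

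The other genes that rose in PkmΔDRE from 2 to 24 h were 3 lid subunits, 1 core chaperone and Psmc3ip. Psmd14 stood at 28.9, 45.4, 28.4 and 36.8 CPM at 2 h and at 67.8, 118.6, 82.8 and 34.3 CPM at 24 h (1.22 ± 0.38, adjusted p = 0.0337). Psmd8 lay at 533, 448, 473 and 389 CPM at 2 h and at 1505, 684, 654 and 1401 CPM at 24 h (1.19 ± 0.31, adjusted p = 0.0148). Psmd13 was at 116.7, 90.3, 115.2 and 104.8 CPM at 2 h and at 265, 121.04, 124.1 and 264 CPM at 24 h (0.85 ± 0.30, adjusted p = 0.0492). The times overlapped for Psmd14 and not for Psmd8 and Psmd13. Psmg3 stood at 4.02, 3.65, 4.25 and 3.43 CPM at 2 h and at 15.7, 6.73, 5.81 and 10.7 CPM at 24 h (1.33 ± 0.41, adjusted p = 0.0315). Psmc3ip, which is no subunit, had 10 counts in all over the 4 libraries at 2 h and entered the test through the later group, so its count among the 7 and its fold change say little, and it stood at 0, 0, 0.540 and 0.167 CPM at 2 h and at 1.96, 1.77, 1.51 and 0.847 CPM at 24 h (3.03 ± 1.01, adjusted p = 0.0419). Of the 9 called, Psmd5 and Psmb9 were the 2 that kept their call whichever library was left out. The count higher was 1 without replicate 4 at 2 h, 2 without replicate 1 at 2 h, 3 without replicate 3 at 2 h or replicate 1 or 3 at 24 h, and 4 without replicate 2 at either time. The count lower was 1 without replicate 1, 3 or 4 at 2 h and without replicate 2 or 3 at 24 h.

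Late in culture many proteasome genes fell. Both culture intervals use the same 24 h libraries, so their values are not independent. From 24 to 120 h in WT vehicle cultures 22 of 50 fell and none rose, against 20.8% and 24.6% of 13947 genes tested, with a median log2 fold change of -0.55 over the proteasome genes and 0.08 over all genes. By adjusted p alone 1 gene (Psmc6) was higher, where 26.4% of all genes were, and DESeq2 called 1 higher. The 22 comprised 5 of 14 core subunits, 2 of 3 immunoproteasome subunits, 3 of 6 ATPases, 6 of 11 lid and base subunits, 2 of 5 activators, 1 of 3 base chaperones and 3 of 4 core chaperones. Psmg4 lay at 16.7, 15.8, 16.8 and 19.7 CPM at 24 h and at 5.72, 6.67, 7.03 and 7.76 CPM at 120 h (-1.39 ± 0.18, adjusted p = 0.00023). Psmg1 was at 33.4, 31.4, 25.8 and 31.1 CPM at 24 h and at 13.2, 18.5, 16.9 and 12.9 CPM at 120 h (-1.02 ± 0.17, adjusted p = 0.001). Psmg2 stood at 20.1, 20.6, 20.99 and 24.96 CPM at 24 h and at 11.4, 11.4, 13.8 and 11.8 CPM at 120 h (-0.89 ± 0.16, adjusted p = 0.00138). All 3 fell without overlap between the times. These chaperones act before the core is complete. Of the core, Psmb4 lay at 286, 292, 275 and 367 CPM at 24 h and at 118.3, 189, 144.2 and 118.99 CPM at 120 h (-1.14 ± 0.19, adjusted p = 0.000852). Psmb7 was at 87.6, 95.3, 90.2 and 122.6 CPM at 24 h and at 44.5, 69.2, 55.4 and 49.1 CPM at 120 h (-0.90 ± 0.18, adjusted p = 0.00258). Psmb5 stood at 77.9, 80.2, 64.6 and 115.4 CPM at 24 h and at 40.9, 63.7, 47.9 and 40.6 CPM at 120 h (-0.86 ± 0.22, adjusted p = 0.00923). In these 3 genes all 120 h libraries lay below all 24 h libraries.

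The immunoproteasome subunits Psmb10 and Psmb9 fell over the same interval. Psmb10 lay at 45.8, 52.8, 45.9 and 59.9 CPM at 24 h and at 18.8, 22.9, 36.01 and 20.6 CPM at 120 h (-1.10 ± 0.22, adjusted p = 0.00226). Psmb9 was at 6.34, 10.9, 11.7 and 10.7 CPM at 24 h and at 4.24, 5.36, 8.55 and 4.17 CPM at 120 h (-0.87 ± 0.29, adjusted p = 0.0297). The times did not overlap for Psmb10 and did for Psmb9. Psmb8 was not called (-0.46 ± 0.29). The macrophage markers summed to 75.2 to 118.3 CPM at 24 h and 18.5 to 116.8 CPM at 120 h, with 2 of 6 falling, and their part in the result was not tested.

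In the regulatory particle the lid subunit Psmd3 stood at 217, 229, 187 and 291 CPM at 24 h and at 105.6, 130.7, 121.8 and 113.1 CPM at 120 h (-1.02 ± 0.17, adjusted p = 0.000842). Psmd13 lay at 164, 176, 136.5 and 194 CPM at 24 h and at 82.7, 122.6, 92.3 and 87.7 CPM at 120 h (-0.84 ± 0.17, adjusted p = 0.00287). Psmd7, another lid subunit, was at 147, 153, 141.5 and 182 CPM at 24 h and at 87.3, 114.8, 109.8 and 94.2 CPM at 120 h (-0.66 ± 0.15, adjusted p = 0.00439). All 3 fell without overlap. The ATPase Psmc3 stood at 229, 229, 186 and 270.2 CPM at 24 h and at 114.3, 176, 136.5 and 133.9 CPM at 120 h (-0.75 ± 0.18, adjusted p = 0.00577). Psmc5 lay at 166, 160.1, 139.4 and 189.9 CPM at 24 h and at 94.04, 115.8, 109.5 and 99.8 CPM at 120 h (-0.69 ± 0.14, adjusted p = 0.00307). Psmc4 was at 191, 198, 175 and 238 CPM at 24 h and at 110.1, 159.5, 138.2 and 124.5 CPM at 120 h (-0.64 ± 0.16, adjusted p = 0.00855). These 3 ATPases also fell without overlap. The base chaperone Psmd9 stood at 35.1, 31.7, 30.4 and 41.6 CPM at 24 h and at 17.2, 25.3, 20.2 and 19.1 CPM at 120 h (-0.80 ± 0.18, adjusted p = 0.00414).

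Of the activators, Psme3 lay at 192, 203, 175 and 227 CPM at 24 h and at 111.6, 126.7, 130.7 and 123.7 CPM at 120 h (-0.74 ± 0.13, adjusted p = 0.00147). Psme1 was at 95.8, 88.1, 69.9 and 95.3 CPM at 24 h and at 46.8, 74.1, 70.1 and 47.4 CPM at 120 h (-0.59 ± 0.19, adjusted p = 0.0263). The times overlapped for Psme1 and not for Psme3. Psme4 and Psmc6, both called higher from 2 to 24 h, had log2 fold changes of 0.85 ± 0.36 and 0.57 ± 0.19 and were not called. Leaving out 1 library gave 13 (without replicate 1 at 120 h) to 26 (without replicate 3 at 24 h) genes lower, 14 without replicate 4 at either time, and 13 of the 22 were called each time. With the trend on G and C content removed 23 fell, of which 13 were among the 22. Psmb2, Psmb9, Psmc3, Psmc4, Psmc5, Psmd2, Psmd4, Psmd8 and Psme1 lost their calls, and Psma1, Psma2, Psma3, Psma4, Psma6, Psmc2, Psmd5, Psmd6, Psmd10 and Psmd11 gained one. With the share of read pairs on no gene in the fit, which was 3.94 to 8.10% at 24 h and 8.57 to 10.7% at 120 h, 1 gene (Psmg4) was called. With the unmapped share in the fit, which was 5.30 to 7.15% at 24 h and 3.83 to 5.40% at 120 h, 6 were called lower, all of them among the 22. Stellate or fibroblast markers summed to 6.02 to 9.07 CPM at 24 h and 20.9 to 139.98 CPM at 120 h, and all 5 tested of the 6 rose, while 6 of 8 hepatocyte markers fell. These shares and time in culture moved together, and the part of other cell types in the result was not tested.

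In PkmΔDRE vehicle cultures 8 of 50 fell from 24 to 120 h and none rose, by edgeR and by DESeq2 (9 lower), against 7.23% and 7.74% of 13605 genes tested. The median log2 fold change was -0.61 over the proteasome genes and 0.08 over all genes. Of the 8, 7 were also among the 22 in WT (87.5% of 8 and 31.8% of 22). Psmb5 stood at 222, 62.9, 45.8 and 125.4 CPM at 24 h and at 50.02, 30.03, 24.4 and 44.5 CPM at 120 h (-1.60 ± 0.48, adjusted p = 0.0454). Psmb4 lay at 799, 239, 215 and 504 CPM at 24 h and at 188, 105.3, 101.3 and 171 CPM at 120 h (-1.63 ± 0.45, adjusted p = 0.034). Psmb10 was at 92.5, 27.1, 28.02 and 51.6 CPM at 24 h and at 28.5, 12.4, 12.1 and 16.8 CPM at 120 h (-1.51 ± 0.46, adjusted p = 0.0498). The times did not overlap for Psmb4 and did for Psmb5 and Psmb10, since the 24 h libraries differed widely among themselves. Psma5, a subunit of the outer ring, stood at 248, 129.7, 88.2 and 201 CPM at 24 h and at 81.5, 57.4, 50.9 and 76.4 CPM at 120 h (-1.33 ± 0.36, adjusted p = 0.0307).

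Of the core chaperones Psmg1 and Psmg4 fell as in WT, Psmg3 fell here alone by the test, and Psmg2 was not called; the difference between the labels was not tested. Psmg4 lay at 28.8, 9.54, 11.6 and 29.8 CPM at 24 h and at 9.98, 4.999, 5.77 and 7.21 CPM at 120 h (-1.53 ± 0.46, adjusted p = 0.0486). Psmg3 was at 15.7, 6.73, 5.81 and 10.7 CPM at 24 h and at 4.65, 3.03, 3.45 and 3.97 CPM at 120 h (-1.36 ± 0.42, adjusted p = 0.0491). Psmg1 stood at 61.4, 25.9, 20.2 and 40.8 CPM at 24 h and at 17.3, 13.4, 13.3 and 15.5 CPM at 120 h (-1.31 ± 0.38, adjusted p = 0.0399). The times overlapped for Psmg4 and not for the other two. Psmb7 (-1.07 ± 0.32) was the last of the 8. No call remained without replicate 1 at 24 h or without any single replicate at 120 h, 1 did without replicate 4 at 24 h, and 10 were called without replicate 3 at 24 h, in which 13.9% of unique read pairs were on no gene. With the unmapped share in the fit, which was 6.39 to 7.08% at 24 h and 4.06 to 6.68% at 120 h, none of the 8 was called. Hepatocyte markers summed to 30318 to 41883 CPM at 24 h and 7933 to 10528 CPM at 120 h, with 5 of 8 falling. Stellate or fibroblast markers summed to 5.27 to 19.9 CPM and 30.5 to 245 CPM, with 2 of 5 tested rising, and macrophage markers to 61.4 to 221 CPM and 54.1 to 222 CPM, with 2 of 6 falling and 1 rising. The part of other cell types was not tested.

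**Figure D5:**
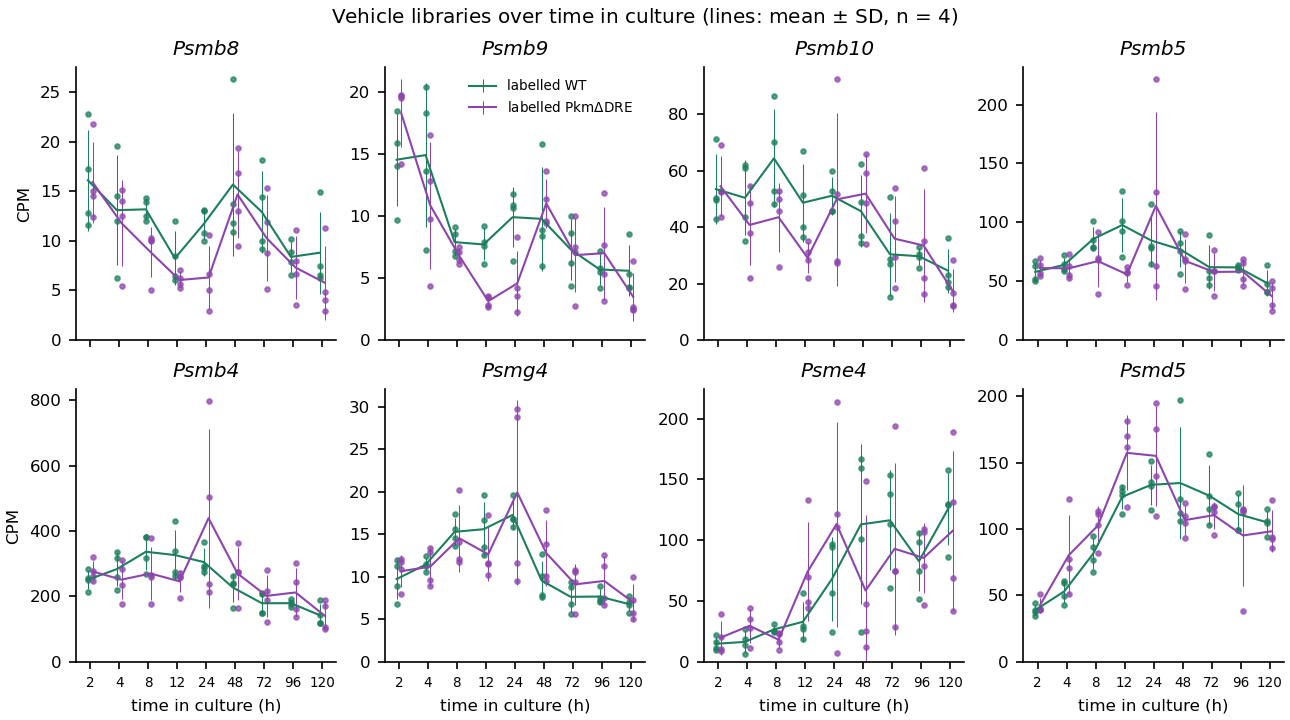
CPM of 8 proteasome genes (vertical axes, linear) in vehicle cultures against time in culture (horizontal axis, hours), with points for libraries and lines through the mean of 4 for each label. Psme4 is low at 2 h and higher at 24 h in WT, and the means of Psmb8 and Psmb9 are higher at 2 h than at 120 h. The PkmΔDRE libraries at 24 h are spread widely.

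Across the 9 times in vehicle cultures, 25 of the 51 proteasome genes had their highest mean at 12 h in WT and 26 their lowest at 120 h. In PkmΔDRE 19 were highest at 24 h and 15 at 12 h, and 29 were lowest at 120 h, with the same counts without the libraries that stood apart. Most core subunits varied together. Over the 36 vehicle libraries of a label, which share scaling and base composition trends, the correlation of a core subunit with the median of the core (log2 scale) had a median of 0.77 in WT and 0.80 in PkmΔDRE over 14 subunits (0.81 without the libraries that stood apart). Psma3 (0.03 and -0.01) and Psma4 (0.30 and 0.10) did not follow the rest. The ATPases had a median of 0.82 and 0.65, and the core chaperones 0.70 and 0.66. Psmc6 (-0.47 and -0.68), Psme4 (-0.49 and -0.66), Psmd1 (-0.37 and -0.64) and Psmd14 (-0.19 and -0.46) ran against the core under both labels. Of the pathway list, 4 genes were higher and 8 lower from 2 to 24 h in WT, 3 and 9 from 24 to 120 h, 3 and 5 from 2 to 24 h in PkmΔDRE and 2 and 1 from 24 to 120 h. Over all genes the called shares were 23.5% and 24.4%, 24.6% and 20.8%, 17.3% and 13.5%, and 7.74% and 7.23%, in that order. Over the first interval in WT, Uba6 (1.61 ± 0.51), Ecpas (1.47 ± 0.35), Uchl5 (1.23 ± 0.28) and Txnl1 (0.68 ± 0.13), a thioredoxin-like protein bound to the lid, rose. Among those that fell were B2m (-1.46 ± 0.14), H2-K1 (-1.31 ± 0.16), Tap1 (-1.21 ± 0.19), H2-D1 (-0.82 ± 0.16), the class I transactivator Nlrc5 (-0.60 ± 0.23) and the autophagy receptor Sqstm1 (-1.21 ± 0.22). In PkmΔDRE Uba6 (2.92 ± 0.97), Uchl5 (2.89 ± 0.78) and Ecpas (2.82 ± 0.75) rose, and B2m (-1.87 ± 0.31), Irf1 (-1.47 ± 0.36), H2-K1 (-1.39 ± 0.34) and Tap1 (-1.28 ± 0.34) fell.

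From 24 to 120 h in WT several genes of the pathway list fell beside the 5 core subunits and 3 core chaperones that were called. These were Pomp (-0.81 ± 0.18), the ubiquitin fusion gene Rps27a (-1.25 ± 0.18), the shuttle factors Ubqln4 (-0.70 ± 0.14) and Rad23b (-0.65 ± 0.12) and Tap2 (-1.26 ± 0.17), Tapbp (-0.92 ± 0.16) and H2-K1 (-0.71 ± 0.19). Nfe2l2 (1.48 ± 0.20) and Ubqln2 (1.44 ± 0.30) rose. In PkmΔDRE Nfe2l2 (2.22 ± 0.43) and Ubqln2 (1.59 ± 0.38) rose and Rps27a (-1.30 ± 0.39) fell. Nfe2l1 was not called in any of the 4 culture comparisons (0.33 and 0.24 in WT, 0.14 and 0.63 in PkmΔDRE). Adrm1 (-0.42, -0.55, 0.17 and -1.03 in the same order) and Sem1 (-0.34, -0.03, -0.08 and -0.37) were not called either.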

How the data were processed

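RNA sequencing was analysed in 144 libraries of primary mouse hepatocytes in 36 groups of 4, set by the label (WT or PkmΔDRE), treatment and time. The authors sequenced unstranded read pairs, trimmed them with Trimmomatic 0.39 and aligned them to GRCm39 (Ensembl release 104) with STAR 2.7, after checks with FastQC 0.11.3 (versions from the submitters' processing notes), and deposited whole-number counts per gene for each library. Lines of these tables that name no gene held 16.8 to 48.0% of a library (median 24.2%) and were left out. Without strand, reads of overlapping genes on opposite strands cannot be told apart.

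Symbols, transcript lengths and base composition were taken from GENCODE M21, which gave a symbol for 52083 of 55359 genes, and promoters from RefSeq for GRCm38.p6. Since the files use GRCm39, no coordinates of that build are given. TCDD was compared with vehicle at each time and label, 24 h with 2 h and 120 h with 24 h in vehicle cultures, and the labels by an interaction term, each with edgeR 4.0.16 (robust quasi-likelihood test, TMM scaling, minimum count 10 and total 15) in R 4.3.3 and Benjamini-Hochberg adjustment over all genes tested. CPM use TMM library sizes over all libraries. Each test was run on the libraries of its own groups. Scripts were tested on simulated data. Alternatives were RLE scaling, DESeq2 1.42.0, no filter on low counts, no fold threshold, a trend on G and C content removed, a covariate for the percentage of uniquely placed pairs outside genes, 1 fit per label (for the interaction, 1 fit of all libraries), 1 surrogate variable (sva 3.50.0, TCDD comparisons) and leaving out each library. A covariate for the percentage of unmapped pairs, and leaving out 2 libraries that stood apart, were chosen after seeing the data. Figures were drawn with matplotlib 3.10.9.

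Over 216 pairs of libraries of the same group, the lowest chi-square per gene was 4.63 (median 95.4), so no pair agreed within counting noise. Values in each library are given for the immunoproteasome subunits and those they replace, for up to 3 called genes per class and direction with the largest fold change, and for activators, inhibitor and assembly chaperones in at least 1 comparison. Called genes of the pathway list are named, with Nfe2l1, Pomp, Adrm1, Sem1, Tap1 and B2m in any case. Single values of a few listed genes are not reported here, although counts over the lists include them. The members, lists and tests were chosen with earlier results of these data known.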

Additional observations from a re-analysis of the deposited data

Results flagged for a closer look

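Of 158 groups of 4 libraries examined for the proteasome genes that are described by library, 6 held a library far from the other three (a gap above 0.829 of the range of the group), where chance gives about 1 in 20 groups. In PkmΔDRE cultures at 8 h, Psmb8 was at 5.04 CPM in vehicle replicate 2 against 10.0 to 10.3 CPM in the others, and at 11.4 CPM in TCDD replicate 1 against 6.43 to 6.85 CPM. In PkmΔDRE vehicle cultures at 2 h, Psmb9 was at 14.2 CPM in replicate 3 against 19.5 to 19.7 CPM, and Psmd5 at 51.2 CPM in replicate 2 against 38.9 to 39.9 CPM. Psmb7 was at 81.9 CPM in WT TCDD replicate 1 at 8 h against 55.7 to 59.9 CPM. Psmg2 was at 13.8 CPM in WT vehicle replicate 3 at 120 h against 11.4 to 11.8 CPM.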

How the results depend on the processing

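In WT at 8 h the 5 proteasome genes called higher became 1 with the G and C trend removed, and no gene was called in either direction with 1 surrogate variable, while the 18 lower became 29 without a fold threshold. At 96 h the 2 higher became 0 with the G and C trend removed, 1 with the share on no gene as covariate, and 0 in 1 fit per label and with the surrogate variable. The 2 lower became 4 with the G and C trend removed (without Psmb5), 23 without a fold threshold, and 0 in the last 2 fits. At 120 h 1 was lower with the covariate. In PkmΔDRE DESeq2 called 1 higher at 2 h, and without a filter on low counts 2 were higher at 2 h, 1 was higher at 8 h, and 1 was lower in the difference between labels at 8 h.

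In WT vehicle cultures the 2 lower from 2 to 24 h became 1 (Psmb9) with RLE scaling or DESeq2 and 0 without the filter, with the covariate and in 1 fit per label. With the G and C trend removed 1 was lower, Psmc2, and both of the 2 lost the call. From 24 to 120 h 1 was higher with DESeq2, without the filter and without a fold threshold, and the 22 lower became 1 with the covariate. In PkmΔDRE the 7 higher from 2 to 24 h became 3 with RLE scaling and 4 without the filter, and the 2 lower became 1 with the covariate. The 8 lower from 24 to 120 h became 4 with RLE scaling and without the filter, 13 with the G and C trend removed, 5 with the covariate and 25 in 1 fit per label. With the unmapped share as covariate, chosen after seeing the data, 1 was higher in WT at 96 h. In WT cultures 0 were lower from 2 to 24 h, and 2 were higher and 6 lower from 24 to 120 h. In PkmΔDRE 0 were higher and 0 lower from 2 to 24 h, where Psmb8 (0.16) and Psmc3ip (-0.62) changed sign, and 0 were lower from 24 to 120 h. The cause of these changes was not tested.

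With the G and C trend removed, class medians (log2 fold change) in WT at 8 h moved from -0.51 to -0.66 for the core and from -0.82 to -0.38 for the activators, and at 96 h from -0.47 to -0.23 for the immunoproteasome and from -0.24 to -0.086 for the activators. The ATPases in WT from 2 to 24 h moved from 0.07 to 0.20, and the core in PkmΔDRE from -0.74 to -1.14 from 24 to 120 h. The core in PkmΔDRE from 2 to 24 h changed sign, from 0.09 to -0.14 and, with RLE scaling, to -0.080.

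Leaving out 1 library gave, in WT at 8 h, 5 to 6 higher and 12 to 22 lower, at 96 h 1 (without TCDD replicate 1) to 2 higher and 2 to 3 lower, and at 120 h 0 to 1 lower. In PkmΔDRE it gave 0 to 2 higher at 2 h and 0 to 2 in each direction at 72 h, and in the difference between labels 0 to 1 lower at 24 h (without PkmΔDRE vehicle replicate 4). In culture it gave 0 to 2 lower from 2 to 24 h in WT, 0 to 2 higher (2 without replicate 2 at 24 h or 3 at 120 h, 1 without replicate 1 at 24 h or 2 at 120 h) and 13 to 26 lower from 24 to 120 h, and in PkmΔDRE 1 to 6 higher and 1 to 2 lower, then 0 to 10 lower.

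Single genes changed sign in a few fits. With the surrogate variable in WT these were Psmc6 (-0.52), Psme4 (-0.91), Psme3 (0.11) and Psmg3 (0.22) at 8 h and Psmc6 (-0.082) and Psme4 (-0.082) at 96 h. Leaving out 1 library, Psmg2 at 8 h ran from -0.16 to 0.037 and changed sign without vehicle replicate 3 or TCDD replicate 2, and Psme1 from 24 to 120 h was at 0.024 with the covariate. In PkmΔDRE at 8 h Psmb5 was at 0.046 with the G and C trend removed, 0.58 with the covariate and 0.16 with the surrogate variable, and ran from -0.25 to 0.12 with 1 library left out, with a positive sign without vehicle replicate 4 or TCDD replicate 2 or 4. Psmb8 was at 0.38 with the covariate. Psmb10 was at 0.43 with the covariate and 0.10 with the surrogate variable, and ran from -0.26 to 0.053 with 1 library left out, with a positive sign without vehicle replicate 3 or TCDD replicate 4. Psmc6 was at -0.014 with the G and C trend removed and at -0.011 with the covariate. No paired analysis was possible because the labels give no replicate numbers. Depth limits Psma8, Psmb11 and Psmc3ip, which had few counts.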
